A study of Homo sapiens with 28 samples.

Results

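The 33 genes described here encode the enzymes of mitochondrial and peroxisomal beta-oxidation, the electron transfer flavoproteins and the peroxisomal steps that go with them. They were taken by gene symbol from a list, and all 33 were found among the 60286 genes listed, and 32 passed the filter on low counts that left 16325 genes for testing. RNA was sequenced from HT-1080 cells, a human fibrosarcoma line labelled as wild type, in 28 libraries. Each of 7 groups had 4 libraries after an overnight incubation. The groups were 10 nM RSL3, 80 µM LA, 80 µM CLA18:2, 10 nM RSL3 with 80 µM LA, 10 nM RSL3 with 80 µM CLA18:2, 5 µM CLA18:3, and the vehicle DMSO. RSL3 is a small molecule inhibitor of GPX4, the peroxidase that reduces lipid hydroperoxides in membranes. LA (linoleic acid) and CLA18:2 (conjugated linoleic acid) are isomers that differ in the placing of their double bonds, which are separated by a methylene group in LA and conjugated in CLA18:2. CLA18:3 is a more unsaturated conjugated acid that was given alone and at another dose, so its values stand beside the others without a direct comparison.

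Beta-oxidation shortens an acyl-CoA by repeated rounds of dehydrogenation, hydration, a further dehydrogenation and thiolysis, each round releasing acetyl-CoA. In mitochondria the first dehydrogenation passes electrons through the electron transfer flavoprotein to the respiratory chain, while in peroxisomes an oxidase passes them to oxygen and forms hydrogen peroxide. Double bonds in a fatty acid stop the cycle unless auxiliary isomerases and a reductase move or remove them. Several of these genes are textbook targets of the PPAR receptors, which bind fatty acids.

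Promoter windows from the RefSeq table on GRCh38.p14, running from 250 bases before to 50 bases after a start site, were found for 25 of the 33 genes, as 34 windows. HADHA and HADHB, the subunits of the mitochondrial trifunctional protein, are encoded on opposite strands of chromosome 2 with start sites 307 bp apart, so that their windows share 194 bases. The HADHB window (chr2:26244689-26244988, plus strand) is shown because this pair is described together further on, and capitals mark the bases that also lie in the HADHA window. The windows of ETFA (chr15:76311420-76311719, minus strand), ETFB (chr19:51366339-51366638, minus strand) and ACADVL (chr17:7219688-7219987, plus strand) are shown as well, and capitals mark motif matches. These genes passed the test with every fatty acid treatment and had a motif match. ACAA2, ECH1 and ETFDH also passed with every fatty acid treatment, but no match was found for them and no window is shown.
HADHB: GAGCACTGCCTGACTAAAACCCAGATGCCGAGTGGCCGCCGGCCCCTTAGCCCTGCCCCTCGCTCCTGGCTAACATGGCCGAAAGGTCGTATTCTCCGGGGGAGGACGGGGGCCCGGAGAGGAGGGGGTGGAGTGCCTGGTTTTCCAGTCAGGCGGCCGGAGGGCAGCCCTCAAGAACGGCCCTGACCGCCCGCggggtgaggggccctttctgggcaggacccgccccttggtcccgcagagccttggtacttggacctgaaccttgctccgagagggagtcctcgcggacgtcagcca
ETFA: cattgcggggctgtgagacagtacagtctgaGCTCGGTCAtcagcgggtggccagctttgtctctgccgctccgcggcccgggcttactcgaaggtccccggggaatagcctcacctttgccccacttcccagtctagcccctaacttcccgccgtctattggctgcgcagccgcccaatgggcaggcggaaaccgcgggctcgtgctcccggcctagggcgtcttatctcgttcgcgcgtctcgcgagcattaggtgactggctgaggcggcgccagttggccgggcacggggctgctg
ETFB: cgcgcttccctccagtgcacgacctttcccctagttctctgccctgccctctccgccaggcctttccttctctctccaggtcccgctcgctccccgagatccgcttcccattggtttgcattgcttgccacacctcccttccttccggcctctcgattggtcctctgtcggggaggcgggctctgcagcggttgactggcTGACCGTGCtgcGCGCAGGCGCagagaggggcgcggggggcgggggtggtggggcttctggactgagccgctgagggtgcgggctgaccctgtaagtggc
ACADVL: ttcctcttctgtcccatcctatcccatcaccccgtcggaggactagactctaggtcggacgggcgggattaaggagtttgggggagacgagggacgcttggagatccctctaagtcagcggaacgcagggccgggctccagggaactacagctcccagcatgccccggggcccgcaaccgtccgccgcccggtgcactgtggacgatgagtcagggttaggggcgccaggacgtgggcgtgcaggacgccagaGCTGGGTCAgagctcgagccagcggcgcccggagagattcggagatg
The motifs were searched on both strands. The antioxidant response element core, TGACNNNGC, lay in 4 of the 34 windows (ACADVL, ACOX3, ETFA and ETFB), or 11.8%, against 13.3% of all 35116 windows in the table. The NRF1 element, GCGCA then any base then GCGC, lay in 4 windows (ABCD3, ACAD9, ETFB and PCCB), or 11.8%, against 5.78% of all windows. The PPAR half-site AGGTCA lay in 2 windows (ACAD10 and PCCA), or 5.88%, against 13.8% of all windows. The PPAR direct repeat, which is that half-site repeated after 1 base of any kind, and the ERR element TCAAGGTCA, which also ends in it, lay in 0 of the 34 windows, against 0.0228% and 0.353% of all windows. A match describes the letters of a window and is not a measured binding site.

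The libraries held 16226270 to 24286824 counts. Values below are counts scaled to a common library size (CPM), given per library in the order of replicates 1 to 4, and log2 fold changes ± SE from edgeR's quasi-likelihood test with Benjamini-Hochberg adjustment over all 16325 genes. A gene is said to have risen or fallen where the adjusted p was under 0.05. The p-values measure only the spread between these libraries, and in bulk RNA fewer cells of a kind and less RNA per cell cannot be told apart. The biological coefficient of variation ran from 4.52% in DMSO to 19.9% in CLA18:3 libraries, while the test uses 1 estimate per gene for all groups. All 8 mesenchymal markers were expressed, and their summed level moved with the treatments. It was 19029 to 21125 CPM in RSL3, 17489 to 18197 CPM in LA, 14219 to 15853 CPM in CLA18:2, 15480 to 17284 CPM in RSL3+LA, 14817 to 16258 CPM in RSL3+CLA18:2 and 16915 to 18683 CPM in CLA18:3, against 18749 to 20699.7 CPM in DMSO libraries, so that the libraries of all 5 fatty acid groups lay below those of DMSO. Markers of hepatocytes, a cell type known for beta-oxidation, summed to 0.0900 to 1.82 CPM, with CYP3A4 and FABP1 at 0 in every library. Of the adipocyte markers, FABP4 and PLIN4 passed the filter, ADIPOQ was at 0, and the list summed to 5.23 to 9.84 CPM in CLA18:3, against 3.79 to 4.49 CPM in DMSO libraries. Of the epithelial markers CLDN4 passed the filter, with a list sum of 1.88 to 4.68 CPM, and of the blood cell markers LCP1 did. The blood cell list summed to 495 to 554 CPM in RSL3, 352 to 379.5 CPM in LA, 359.6 to 404 CPM in CLA18:2, 335 to 397 CPM in RSL3+LA, 424 to 465 CPM in RSL3+CLA18:2 and 507 to 592 CPM in CLA18:3, against 461 to 499 CPM in DMSO libraries. Nearly all of this sum is LCP1, at a mean of 445 CPM over the libraries, where CD14, the next highest of the list, had 0.0556 CPM. The part of these markers in the results below was not tested.

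The 33 genes together took a larger share of all counts in every library with a fatty acid than in any DMSO library. Their share was 0.167% to 0.172% in LA, 0.183% to 0.197% in CLA18:2, 0.171% to 0.176% in RSL3+LA, 0.178% to 0.187% in RSL3+CLA18:2 and 0.161% to 0.174% in CLA18:3 libraries. It was 0.141% to 0.147% with RSL3 alone, against 0.147% to 0.149% in DMSO libraries. ACADVL alone made up 24.6% of the genes' counts in CLA18:2 and 22.0% in LA, against 18.0% in DMSO libraries. Without ACADVL the share of the other genes was 0.142% to 0.147% in CLA18:2 and 0.130% to 0.133% in LA, against 0.120% to 0.123% in DMSO libraries. The share of mitochondrially encoded mRNAs varied within groups, at 0.312% to 1.48% in CLA18:2 and 0.451% to 1.44% in LA libraries, against 1.26% to 1.49% in DMSO libraries. Replicate 4 of RSL3, at 0.548%, and replicate 3 of RSL3+CLA18:2, at 1.68%, stood apart from the other libraries of their groups in this share. Genes detected after thinning to 16226270 counts numbered 18673 to 20460 in CLA18:3 and 19031 to 21268 in RSL3+CLA18:2, against 22643 to 22890 in DMSO libraries. The part of either measure in the results below was not tested. Without RSL3 replicate 4 the count of the 33 genes past the test in RSL3 stayed at 0, and without RSL3+CLA18:2 replicate 3 it was 14 in place of 15.

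**Figure D1:**
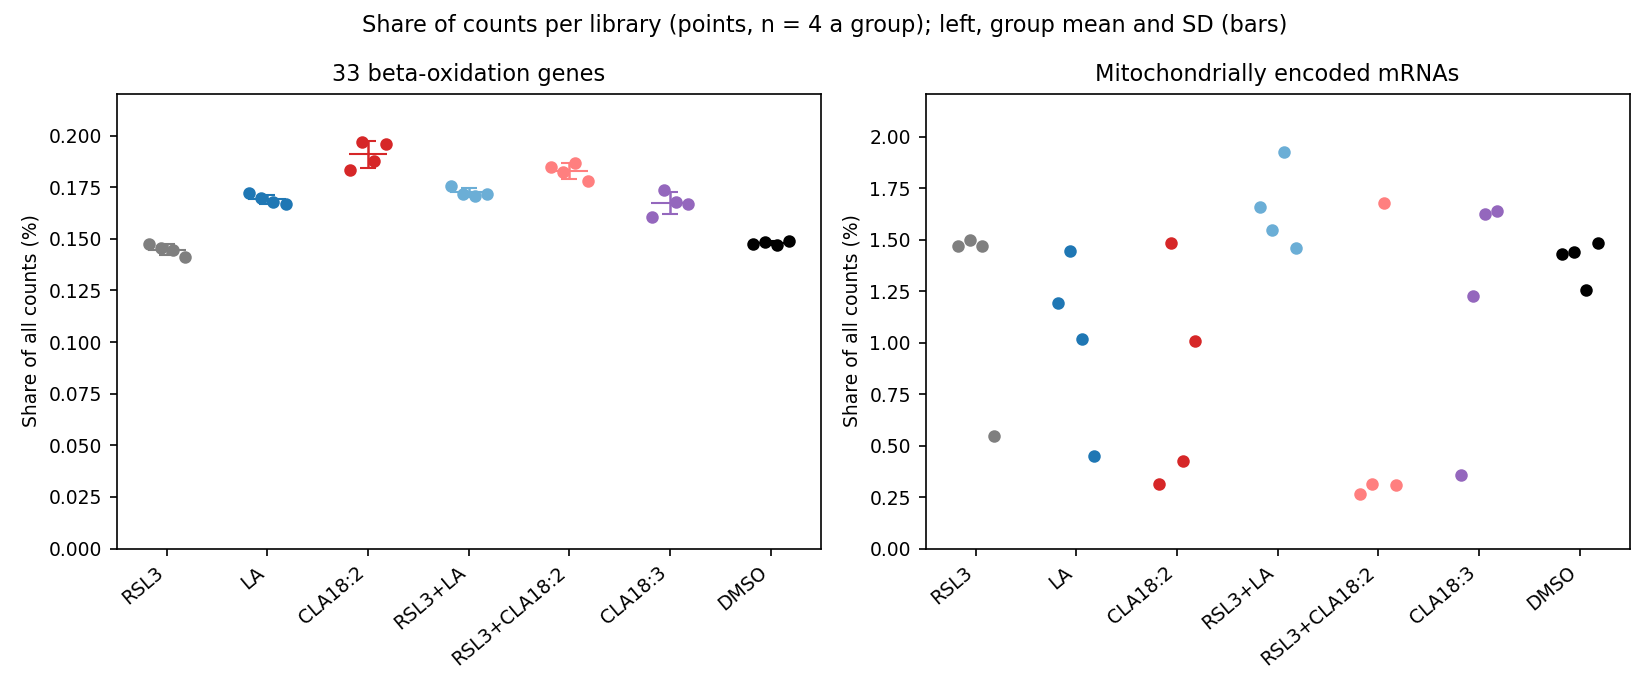
Share of all counts in percent (y axis) per library, by group (x axis), for the 33 beta-oxidation genes (left, with group mean and SD as bars, n = 4) and for the mitochondrially encoded mRNAs (right, points only). On the left every library with a fatty acid lies above the DMSO libraries, which span 0.147% to 0.149%, and on the right the libraries of most treated groups are spread widely.

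Per kilobase of merged exons (GENCODE release 29), the genes differed widely in level in DMSO libraries. ECHS1, the short-chain enoyl-CoA hydratase, was highest at 62.8 CPM per kb, followed by ACADVL at 54.2 CPM per kb, HADHA at 34.1 CPM per kb, ETFA at 19.4 CPM per kb and HADHB at 14.7 CPM per kb. The lowest of the tested genes were ACAD11 at 0.326, ECHDC2 at 0.656 and PCCA at 0.729 CPM per kb. DECR2, the peroxisomal dienoyl-CoA reductase, had 5 counts in all, each of them in RSL3+LA replicate 2 (0.247 CPM), and was not tested. Its mitochondrial counterpart DECR1 was at 16.6 to 18.2 CPM in DMSO libraries. Overlaps with other genes limit some values, since no strand setting is given: 83.8% of the exon length of ACAD11 is shared with other genes, 29.8% of ECI2, 22.1% of PCCB, 21.2% of ACAA1, 20.7% of SCP2, 16.3% of ECH1, 13.8% of ETFDH and 10.5% of ACAD9. HADHA has 2 processed pseudogenes, HADHAP1 and HADHAP2, with which reads may be shared.

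The treatments differed in how many of the 32 tested genes passed the test. Against DMSO, 14 rose and 4 fell in CLA18:2, where 20.1% of all genes tested rose and 18.6% fell (38.8% in all). In CLA18:3 14 rose and 3 fell, where 19.1% of all genes tested rose and 16.7% fell (35.9% in all). In RSL3+CLA18:2 13 rose and 2 fell, where 18.6% of all genes tested rose and 16.6% fell (35.2% in all). In LA 7 rose and 0 fell, where 4.91% of all genes tested rose and 3.41% fell (8.32% in all). In RSL3+LA 7 rose and 1 fell, where 5.43% of all genes tested rose and 4.81% fell (10.2% in all). In LA the genes at an unadjusted p under 0.05 numbered 11, of which 2 were lower, and DESeq2 also called 7 higher and 0 lower. With RSL3 alone 0 of the 32 changed, where 0.178% of all genes tested rose and 0.0245% fell (0.202% in all), with 1 at an unadjusted p under 0.05 and 0 by DESeq2. The median log2 fold change of the 32 genes was 0.19 in CLA18:2, beside -0.02 over all genes tested, 0.17 beside 0.00 in CLA18:3, and 0.05 beside 0.00 in LA. The 7 of 32 in LA thus stood beside a background of 8.32%, and the 18 of 32 in CLA18:2 and 17 of 32 in CLA18:3 beside far higher backgrounds. Limma voom with a weight per group, which lets the spread differ between groups, called 11 of the 32 in LA and 15 in CLA18:3. The groups share the 4 DMSO libraries, so these comparisons are not independent of each other.

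**Figure D2:**
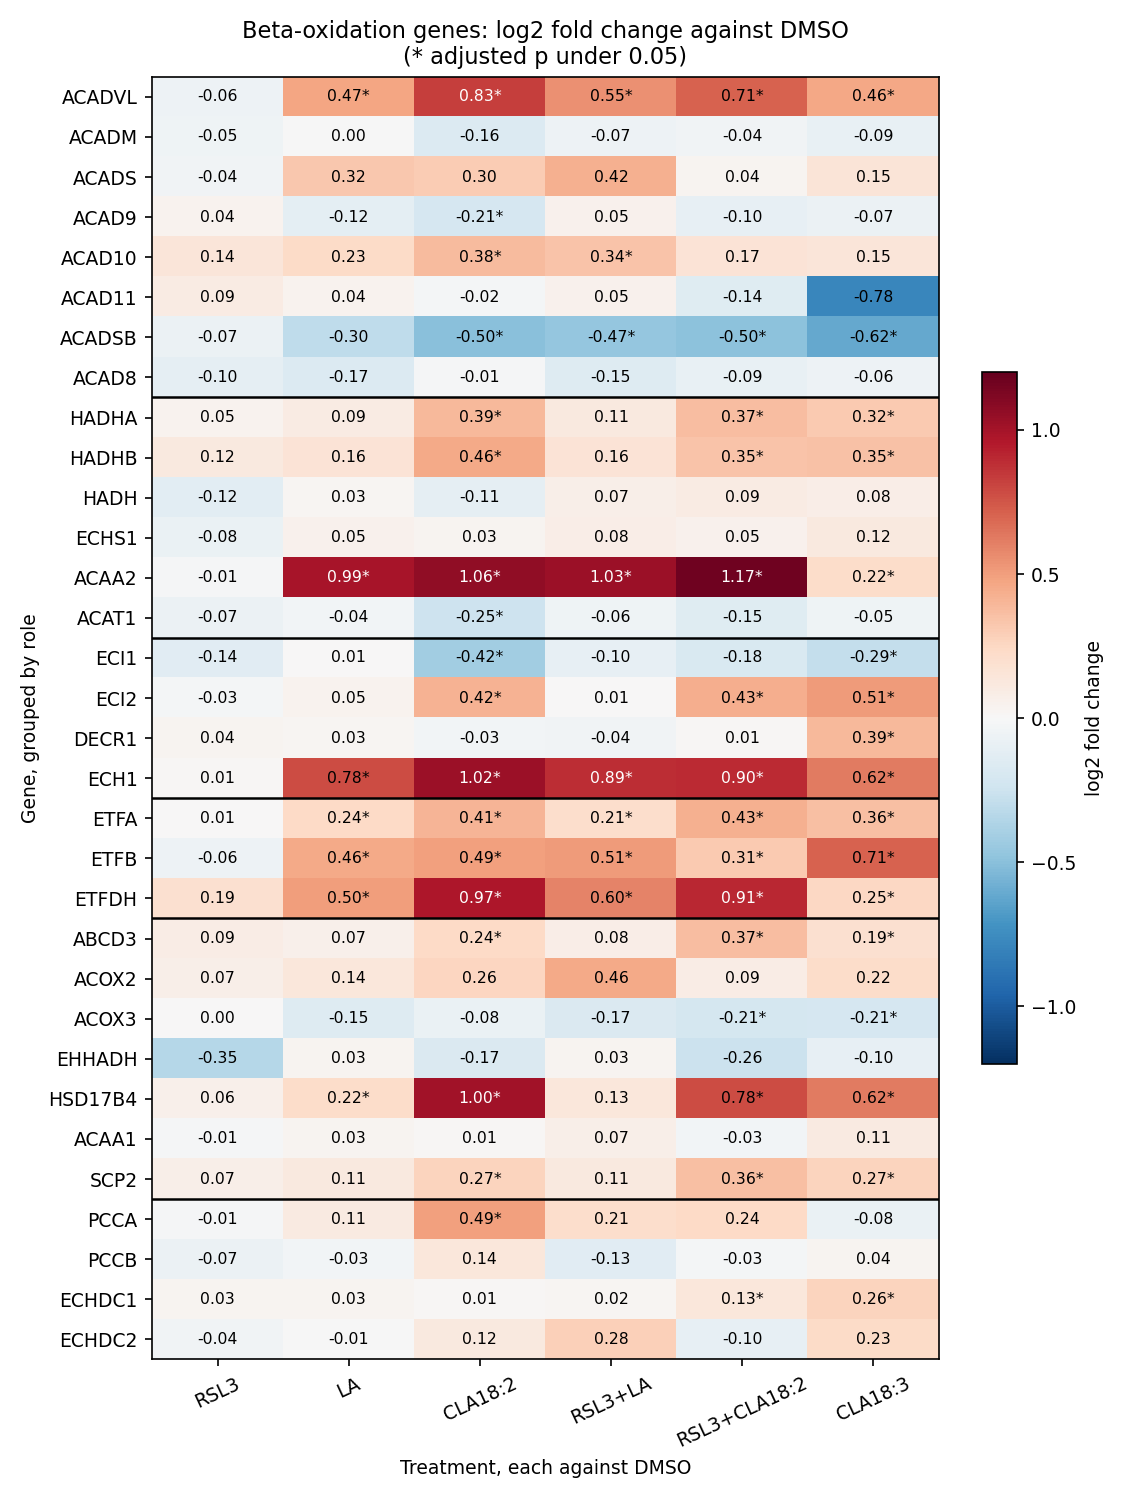
Log2 fold change against DMSO (colour scale and printed values) for the 32 tested genes (rows, grouped by role) under 6 treatments (columns), with a star where the adjusted p is under 0.05. ACAA2, ECH1, ACADVL and the electron transfer genes carry stars under all 5 fatty acid treatments, and the RSL3 column carries none.

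Of the 8 acyl-CoA dehydrogenases, which start a mitochondrial round, ACADVL rose in all 5 fatty acid groups, and none of the other 7 passed the test in LA. The share of the list called was 12.5% in LA, 50% in CLA18:2, 25% in CLA18:3, 37.5% in RSL3+LA and 25% in RSL3+CLA18:2. In the same order, 8.32%, 38.8%, 35.9%, 10.2% and 35.2% of all genes tested were called. ACADVL, the very long-chain enzyme of the inner membrane (chr17:7217125-7225273, plus strand), was at 383, 392, 337 and 350.2 CPM in LA, at 416, 527, 443 and 487 CPM in CLA18:2 and at 329.9, 344, 379 and 401 CPM in CLA18:3 libraries, against 269.7, 268, 264 and 254 CPM in DMSO libraries. The lowest library with a fatty acid lay above the highest DMSO library. The log2 fold change was 0.47 ± 0.07 (adjusted p = 6.9e-06) for LA, 0.83 ± 0.07 (adjusted p = 3.6e-12) for CLA18:2 and 0.46 ± 0.07 (adjusted p = 1.6e-06) for CLA18:3. With RSL3 present the log2 fold change was 0.55 ± 0.07 (adjusted p = 2.8e-07) for RSL3+LA and 0.71 ± 0.07 (adjusted p = 2.1e-10) for RSL3+CLA18:2. ACADSB, the short branched-chain enzyme of isoleucine breakdown, moved the other way. It was at 9.50, 9.50, 10.1 and 8.49 CPM in CLA18:2 and 8.66, 8.29, 9.74 and 7.96 CPM in CLA18:3, against 12.2, 13.6, 12.6 and 14.8 CPM in DMSO libraries, with no overlap between either treated group and DMSO. Its log2 fold change was -0.50 ± 0.10 (adjusted p = 1.7e-04) for CLA18:2, -0.62 ± 0.10 (adjusted p = 1.3e-05) for CLA18:3, -0.47 ± 0.10 (adjusted p = 0.00186) for RSL3+LA and -0.50 ± 0.10 (adjusted p = 2.4e-04) for RSL3+CLA18:2. In LA the log2 fold change was -0.30 ± 0.10 (adjusted p = 0.0611), with libraries at 10.05, 10.5, 12.02 and 10.5 CPM. There ACADSB passed with the compared groups alone (adjusted p = 0.0254) and with limma voom (adjusted p = 0.00544). ACAD9, which acts on long chains and also in complex I assembly, was at 52.7, 51.3, 51.4 and 53.8 CPM in CLA18:2, against 62.6, 61.3, 60.6 and 56.6 CPM in DMSO libraries, and fell with a log2 fold change of -0.21 ± 0.05 (adjusted p = 0.00102). ACAD10, a less studied member of the family, stood at 18.9 to 20.00 CPM in CLA18:2 and 16.7 to 20.3 CPM in RSL3+LA, against 13.8 to 17.2 CPM in DMSO libraries. It rose with a log2 fold change of 0.38 ± 0.09 (adjusted p = 0.00121) in CLA18:2 and of 0.34 ± 0.09 (adjusted p = 0.0121) in RSL3+LA, where the call was lost without any 1 of RSL3+LA replicate 3 or DMSO replicates 1 and 3 (adjusted p = 0.0509 to 0.0647).

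The medium-chain enzyme ACADM, the short-chain enzyme ACADS, the isobutyryl-CoA dehydrogenase ACAD8 of valine breakdown and ACAD11 did not pass the test in any of the 12 comparisons. Under other settings some did. ACADM was lower in CLA18:2 against DMSO with the compared groups alone (adjusted p = 0.0306) and with limma voom (adjusted p = 0.0173). Against LA it was also lower under these settings (adjusted p = 0.0332 and 0.0330). ACADS was higher in CLA18:2 against DMSO with the compared groups alone (adjusted p = 0.0482). ACAD11 was lower in CLA18:3 against DMSO by DESeq2 (adjusted p = 0.0420). ACADM ranged over 47.5 to 51.9 CPM in CLA18:2 and 54.04 to 57.05 CPM in LA, against 52.95 to 59.8 CPM in DMSO libraries. Its log2 fold change was -0.16 ± 0.07 in CLA18:2 (95% interval -0.31 to -0.01) and 0.00 ± 0.07 in LA (95% interval -0.15 to 0.15). The log2 fold changes of ACADVL at the same dose lay above both intervals. ACADS ranged over 5.30 to 6.52 CPM in CLA18:2, against 4.57 to 5.00 CPM in DMSO libraries, and ACAD8 over 18.8 to 26.2 CPM in CLA18:2, against 21.4 to 25.2 CPM in DMSO libraries. ACAD11 was at 1.37, 0.485, 1.41 and 1.05 CPM in CLA18:3, against 1.26, 1.85, 2.06 and 2.23 CPM in DMSO libraries, with a log2 fold change of -0.78 ± 0.32 (adjusted p = 0.0586).

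Of the 6 genes of hydration to thiolysis, ACAA2 rose in all 5 fatty acid groups and was the only one of them past the test in LA. The share of these genes called was 16.7% in LA (beside 8.32% of all genes tested), 66.7% in CLA18:2 (beside 38.8%) and 50% in CLA18:3 (beside 35.9%). It was 16.7% in RSL3+LA (beside 10.2%) and 50% in RSL3+CLA18:2 (beside 35.2%). ACAA2, a mitochondrial 3-ketoacyl-CoA thiolase (chr18:49782167-49813960, minus strand), was at 60.3, 53.5, 62.4 and 61.8 CPM in LA, 63.00, 63.1, 61.1 and 63.9 CPM in CLA18:2 and 35.3, 37.3, 31.8 and 35.6 CPM in CLA18:3 libraries, against 30.3, 28.2, 31.2 and 30.6 CPM in DMSO libraries. The libraries of all 3 acids lay above those of DMSO. The log2 fold change was 0.99 ± 0.06 (adjusted p = 4.6e-14) for LA, 1.06 ± 0.06 (adjusted p = 1.6e-16) for CLA18:2 and 0.22 ± 0.06 (adjusted p = 0.00403) for CLA18:3. The CLA18:3 call was lost with no low-count filter (adjusted p = 0.0682). RSL3+LA, at 59.9 to 62.4 CPM, gave a log2 fold change of 1.03 ± 0.06 (adjusted p = 1.0e-14), and RSL3+CLA18:2, at 63.6 to 73.1 CPM, gave a log2 fold change of 1.17 ± 0.06 (adjusted p = 1.7e-17). RSL3 alone, at 28.8 to 31.04 CPM, gave a log2 fold change of -0.01 ± 0.06 (adjusted p = 0.998).

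HADHA and HADHB rose together with the conjugated acids. HADHA, which carries the hydratase and dehydrogenase activities of the trifunctional protein, was at 209.7, 186, 187 and 202 CPM in CLA18:2 and 188, 201, 181 and 177 CPM in CLA18:3, against 145, 151, 147 and 156 CPM in DMSO libraries. HADHB, which carries its thiolase, was at 88.7, 84.7, 86.1 and 85.3 CPM in CLA18:2 and 87.9, 87.7, 77.1 and 68.2 CPM in CLA18:3, against 63.6, 60.4, 61.2 and 66.1 CPM in DMSO libraries. Every library of both acids lay above the DMSO libraries for both genes. HADHA rose with a log2 fold change of 0.39 ± 0.06 (adjusted p = 4.7e-07) in CLA18:2, 0.32 ± 0.06 (adjusted p = 2.2e-05) in CLA18:3 and 0.37 ± 0.06 (adjusted p = 2.0e-06) in RSL3+CLA18:2. HADHB rose with a log2 fold change of 0.46 ± 0.06 (adjusted p = 3.9e-07) in CLA18:2, 0.35 ± 0.06 (adjusted p = 4.3e-05) in CLA18:3 and 0.35 ± 0.06 (adjusted p = 5.2e-05) in RSL3+CLA18:2. In LA the log2 fold changes were 0.09 ± 0.06 (adjusted p = 0.407) for HADHA, at 150.5 to 168 CPM, and 0.16 ± 0.06 (adjusted p = 0.149) for HADHB, at 65.97 to 75.5 CPM. HADHB did pass in LA with the compared groups alone (adjusted p = 0.0486) and with limma voom (adjusted p = 0.0285). In RSL3+LA, at 67.2 to 72.2 CPM, HADHB likewise passed only with the compared groups alone (adjusted p = 0.0379) and with limma voom (adjusted p = 0.0442). The log2 ratio of HADHB to HADHA within a library was -1.18 ± 0.07 (SD, n = 4) in CLA18:2 and -1.22 ± 0.12 in CLA18:3, against -1.25 ± 0.05 in DMSO libraries. Over all 7 groups the mean of this ratio ran from -1.27 to -1.18, and differences in it were not tested. ACAT1, the mitochondrial acetoacetyl-CoA thiolase, was at 54.2, 53.6, 62.2 and 61.97 CPM in CLA18:2, against 68.3, 66.2, 67.4 and 73.1 CPM in DMSO libraries, and fell with a log2 fold change of -0.25 ± 0.06 (adjusted p = 0.00154). HADH, the short-chain hydroxyacyl-CoA dehydrogenase, and ECHS1 did not pass the test in any of the 12 comparisons. ECHS1 was at 101 to 109.8 CPM in LA and 92.5 to 111 CPM in CLA18:2, against 98.1 to 104 CPM in DMSO libraries, while HADH was at 22.4 to 26.1 CPM in LA and 20.3 to 23.6 CPM in CLA18:2, against 22.9 to 25.2 CPM in DMSO libraries.

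Among the auxiliary enzymes that deal with double bonds, ECH1 rose in every fatty acid group and the isomerases ECI1 and ECI2 moved apart in the conjugated acids. ECH1, a dienoyl-CoA isomerase found in mitochondria and peroxisomes (chr19:38815422-38832005, minus strand), was at 21.7, 25.7, 21.2 and 22.1 CPM in LA, 25.9, 24.8, 26.5 and 30.2 CPM in CLA18:2 and 19.95, 18.3, 21.2 and 21.7 CPM in CLA18:3 libraries, against 13.04, 13.5, 13.5 and 12.7 CPM in DMSO libraries. None of the libraries of the 3 acids overlapped those of DMSO. The log2 fold change was 0.78 ± 0.08 (adjusted p = 1.2e-08) for LA, 1.02 ± 0.08 (adjusted p = 1.4e-12) for CLA18:2 and 0.62 ± 0.08 (adjusted p = 2.2e-07) for CLA18:3. The log2 fold change was 0.89 ± 0.08 (adjusted p = 5.4e-10) for RSL3+LA and 0.90 ± 0.08 (adjusted p = 5.0e-11) for RSL3+CLA18:2.

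ECI1 and ECI2 both shift a double bond from the third to the second carbon so that the hydratase can act, ECI1 in mitochondria and ECI2 mainly in peroxisomes. ECI2 was at 34.6, 39.3, 35.1 and 40.8 CPM in CLA18:2 and 38.1, 42.3, 34.6 and 44.2 CPM in CLA18:3, against 27.3, 28.5, 28.2 and 28.1 CPM in DMSO libraries. ECI1 was at 20.3, 21.04, 19.8 and 20.8 CPM in CLA18:2 and 19.6, 21.96, 22.6 and 25.5 CPM in CLA18:3, against 30.5, 26.6, 27.03 and 25.2 CPM in DMSO libraries. ECI2 libraries of both acids lay above DMSO, and ECI1 libraries lay below DMSO in CLA18:2 and overlapped it in CLA18:3. ECI2 rose with a log2 fold change of 0.42 ± 0.09 (adjusted p = 2.3e-04) in CLA18:2, 0.51 ± 0.09 (adjusted p = 2.3e-05) in CLA18:3 and 0.43 ± 0.09 (adjusted p = 2.0e-04) in RSL3+CLA18:2. ECI1 fell with a log2 fold change of -0.42 ± 0.09 (adjusted p = 2.3e-04) in CLA18:2 and -0.29 ± 0.09 (adjusted p = 0.0102) in CLA18:3, and stood at -0.18 ± 0.09 (adjusted p = 0.112) in RSL3+CLA18:2. The log2 ratio of ECI1 to ECI2 within a library was -0.87 ± 0.09 (SD, n = 4) in CLA18:2, -0.83 ± 0.16 in CLA18:3 and -0.66 ± 0.21 in RSL3+CLA18:2, against -0.04 ± 0.14 in DMSO libraries. In LA it was -0.08 ± 0.12 and in RSL3+LA -0.13 ± 0.27, with ECI1 at 0.01 and ECI2 at 0.05 on the log2 scale in LA against DMSO, neither past the test. DECR1, the mitochondrial dienoyl-CoA reductase needed for polyunsaturated acids, passed the test only in CLA18:3 among the 6 treatments. It was at 26.01, 24.3, 20.03 and 20.6 CPM in CLA18:3, against 18.2, 16.8, 16.6 and 17.7 CPM in DMSO libraries, a log2 fold change of 0.39 ± 0.13 (adjusted p = 0.0131). This call was lost without CLA18:3 replicate 1 (adjusted p = 0.0648). In CLA18:2 DECR1 was at 14.9 to 18.8 CPM and -0.03 ± 0.13 on the log2 scale, and whether these responses differ was not tested, since the doses do.

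**Figure D3:**
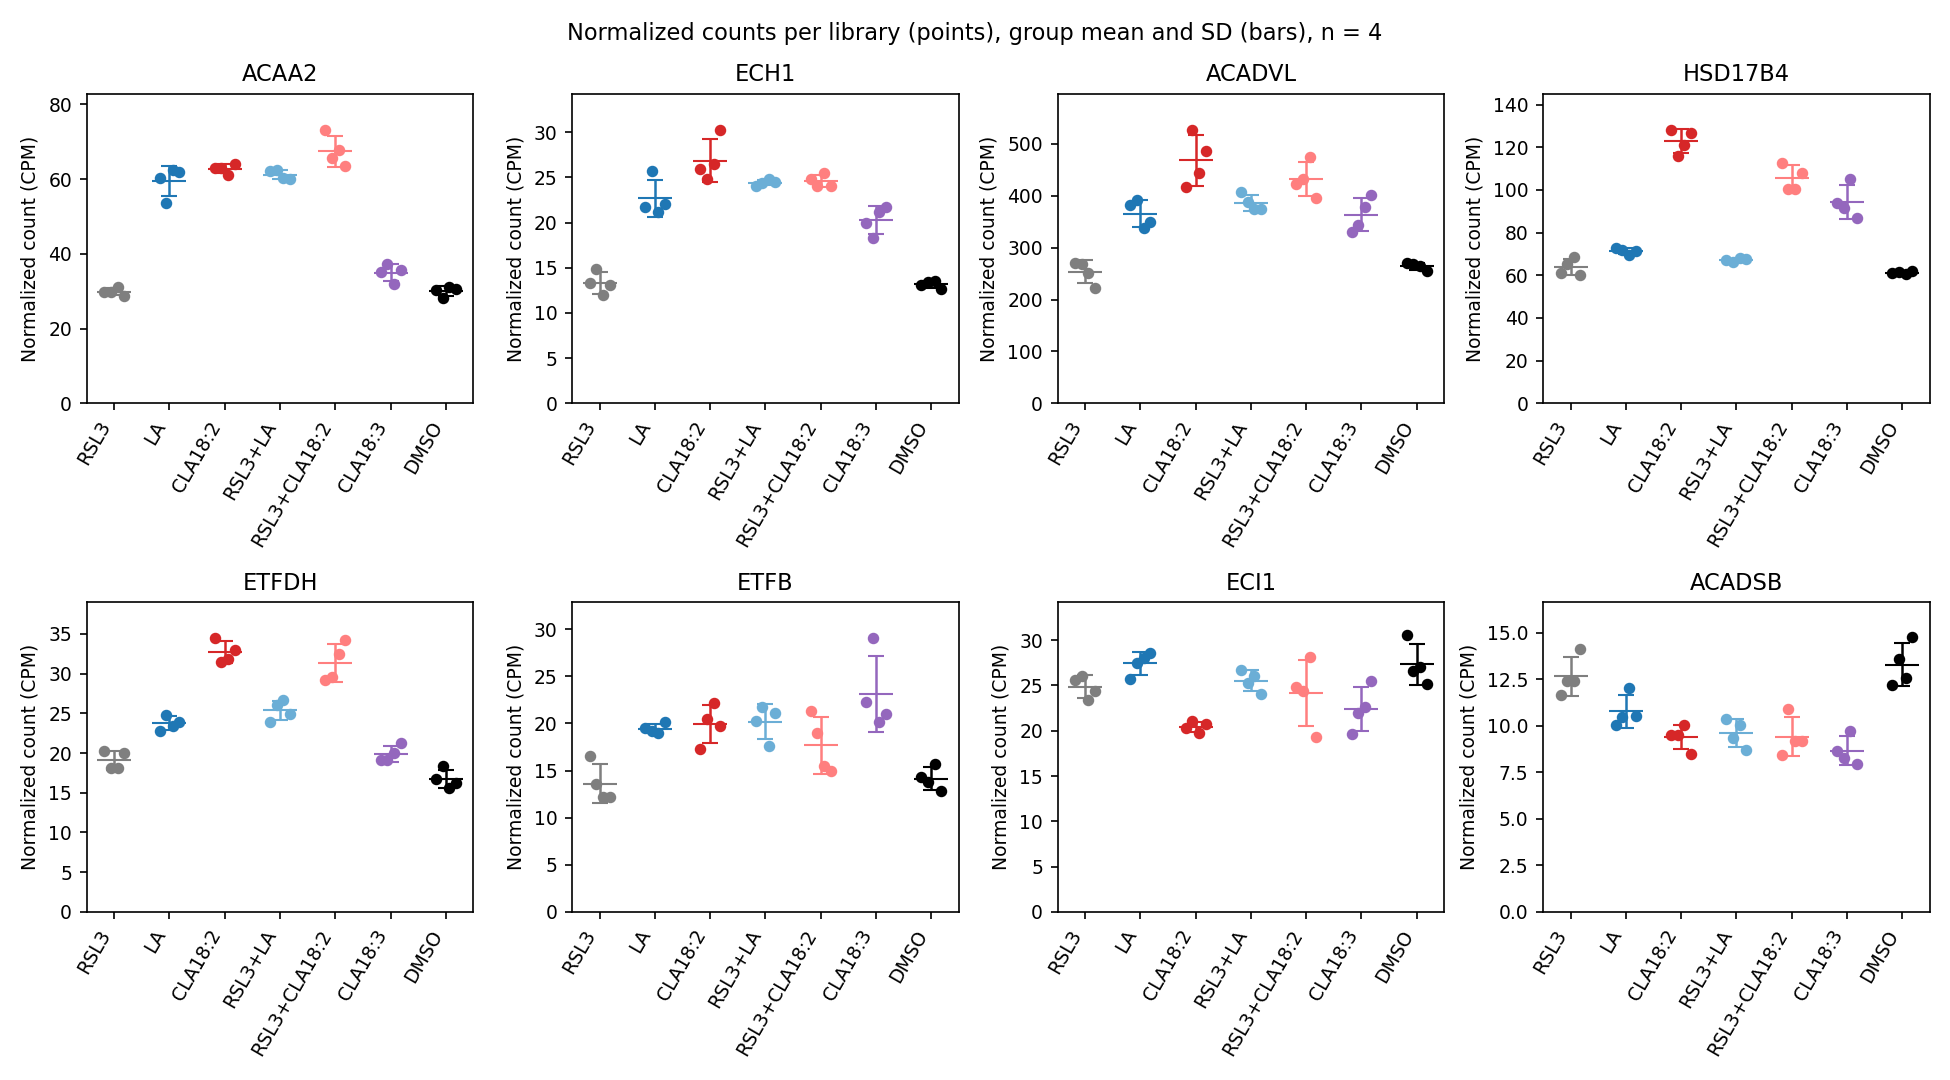
Normalized count in CPM (y axis) in each library (points) with the group mean and SD (bars, n = 4) for 8 genes, by group (x axis), with DMSO last. ACAA2 and ECH1 lie above DMSO in all fatty acid groups, HSD17B4 lies higher in CLA18:2 than in LA libraries, and ECI1 and ACADSB lie below DMSO in CLA18:2 libraries.

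All 3 electron transfer genes rose in all 5 fatty acid groups. Of all genes tested, 4.91% rose in LA, 20.1% in CLA18:2, 19.1% in CLA18:3, 5.43% in RSL3+LA and 18.6% in RSL3+CLA18:2. ETFDH, the oxidoreductase that hands electrons from the flavoprotein to ubiquinone (chr4:158672125-158709623, plus strand), was at 22.8, 24.8, 23.4 and 23.96 CPM in LA, 34.5, 31.4, 31.9 and 32.98 CPM in CLA18:2 and 19.1, 19.1, 19.97 and 21.3 CPM in CLA18:3 libraries, against 16.8, 18.3, 15.6 and 16.2 CPM in DMSO libraries. The 3 groups lay above DMSO without overlap. ETFDH rose with a log2 fold change of 0.50 ± 0.07 (adjusted p = 6.8e-06) in LA, 0.97 ± 0.07 (adjusted p = 3.6e-13) in CLA18:2 and 0.25 ± 0.07 (adjusted p = 0.00818) in CLA18:3, the last of which was lost without DMSO replicate 3 (adjusted p = 0.0504), and also with no low-count filter and with the compared groups alone (adjusted p up to 0.123). With RSL3 the log2 fold changes were 0.60 ± 0.07 (adjusted p = 2.1e-07) for RSL3+LA and 0.91 ± 0.07 (adjusted p = 2.4e-12) for RSL3+CLA18:2.

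ETFA and ETFB, the subunits of the flavoprotein, are encoded on different chromosomes. ETFA was at 121, 114, 111 and 115 CPM in LA, 119, 131, 126 and 142 CPM in CLA18:2 and 123, 138, 122 and 118 CPM in CLA18:3 libraries, against 93.7, 98.7, 100.5 and 97.2 CPM in DMSO libraries. ETFB was at 19.5, 19.2, 18.9 and 20.2 CPM in LA, 17.2, 20.5, 22.2 and 19.8 CPM in CLA18:2 and 22.2, 29.03, 20.1 and 21.1 CPM in CLA18:3 libraries, against 14.4, 13.7, 15.7 and 12.8 CPM in DMSO libraries. No library of these acids fell within the DMSO range for either gene. ETFA rose with a log2 fold change of 0.24 ± 0.05 (adjusted p = 0.00165) in LA, 0.41 ± 0.05 (adjusted p = 6.0e-08) in CLA18:2, 0.36 ± 0.05 (adjusted p = 1.1e-06) in CLA18:3, 0.21 ± 0.05 (adjusted p = 0.00482) in RSL3+LA and 0.43 ± 0.05 (adjusted p = 3.7e-08) in RSL3+CLA18:2. ETFB rose with a log2 fold change of 0.46 ± 0.12 (adjusted p = 0.00927) in LA, 0.49 ± 0.12 (adjusted p = 9.9e-04) in CLA18:2, 0.71 ± 0.12 (adjusted p = 1.1e-05) in CLA18:3 and 0.51 ± 0.12 (adjusted p = 0.00285) in RSL3+LA. In RSL3+CLA18:2 ETFB was at 21.3, 18.97, 15.5 and 14.9 CPM, overlapping DMSO, with a log2 fold change of 0.31 ± 0.12 (adjusted p = 0.0379), a call lost without any 1 of RSL3+CLA18:2 replicates 1 and 2 or DMSO replicates 1, 2 and 4 (adjusted p = 0.0626 to 0.202), and also with limma voom (adjusted p = 0.0545). The log2 ratio of ETFB to ETFA was -2.45 ± 0.14 (SD, n = 4) in CLA18:3 and -2.57 ± 0.05 in LA, against -2.79 ± 0.11 in DMSO libraries, and these ratios were not tested.

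Of the 7 peroxisomal genes, HSD17B4 alone rose in LA (14.3% of the list called, beside 8.32% of all genes tested). In CLA18:2 3 rose and 0 fell (42.9%, beside 38.8%), a share near that of all genes. In CLA18:3 3 rose and 1 fell (57.1%, beside 35.9%), and in RSL3+CLA18:2 3 rose and 1 fell (57.1%, beside 35.2%). In RSL3+LA 0 were called (beside 10.2%). HSD17B4 is the D-bifunctional protein, which carries the hydratase and dehydrogenase steps for most peroxisomal substrates (chr5:119452443-119637199, plus strand). It was at 128, 116, 121 and 127 CPM in CLA18:2, 94.1, 91.6, 105 and 86.7 CPM in CLA18:3 and 72.99, 72.1, 69.7 and 71.6 CPM in LA libraries, against 60.9, 61.8, 60.5 and 62.1 CPM in DMSO libraries. The 3 groups were above DMSO without overlap, and CLA18:2 libraries were all above those of LA. The log2 fold change against DMSO was 1.004 ± 0.05 (adjusted p = 3.5e-17) for CLA18:2, 0.62 ± 0.05 (adjusted p = 1.7e-11) for CLA18:3, 0.78 ± 0.05 (adjusted p = 3.4e-14) for RSL3+CLA18:2 and 0.22 ± 0.05 (adjusted p = 0.00466) for LA. RSL3+LA, at 66.4 to 67.9 CPM, gave a log2 fold change of 0.13 ± 0.05 (adjusted p = 0.124), and passed only with limma voom (adjusted p = 0.0498). EHHADH, the L-bifunctional protein that catalyses the same pair of steps, was at 4.71 to 5.92 CPM in CLA18:2 and 5.79 to 6.82 CPM in LA, against 5.32 to 7.37 CPM in DMSO libraries, and did not pass the test in any of the 12 comparisons.

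ABCD3, a transporter that brings acyl-CoA into peroxisomes, and SCP2, whose longer product is a peroxisomal thiolase, rose in the conjugated acid groups. ABCD3 was at 58.6, 57.1, 61.4 and 56.7 CPM in CLA18:2 and 63.4, 56.5, 71.7 and 63.9 CPM in RSL3+CLA18:2, against 47.6, 49.1, 47.1 and 54.3 CPM in DMSO libraries, and rose with a log2 fold change of 0.24 ± 0.07 (adjusted p = 0.00703) in CLA18:2 and 0.37 ± 0.07 (adjusted p = 8.3e-05) in RSL3+CLA18:2. SCP2 was at 53.97, 48.4, 53.7 and 50.6 CPM in CLA18:2 and 57.3, 57.6, 58.02 and 46.4 CPM in RSL3+CLA18:2, against 47.1, 39.7, 44.5 and 39.9 CPM in DMSO libraries, and rose with a log2 fold change of 0.27 ± 0.08 (adjusted p = 0.0100) in CLA18:2 and 0.36 ± 0.08 (adjusted p = 0.00103) in RSL3+CLA18:2. The CLA18:2 libraries lay above DMSO for both genes, while 1 RSL3+CLA18:2 library lay within the DMSO range for SCP2. In CLA18:3 the log2 fold changes were 0.19 ± 0.07 (adjusted p = 0.0342) for ABCD3 and 0.27 ± 0.08 (adjusted p = 0.0116) for SCP2. The ABCD3 call in CLA18:3 was lost without any 1 of CLA18:3 replicates 1 and 2 or DMSO replicates 1, 2 and 3 (adjusted p = 0.0770 to 0.156), and also with DESeq2 size factors, with no low-count filter, with the compared groups alone and with limma voom (adjusted p up to 0.116). The SCP2 call in CLA18:3 was lost without any 1 of CLA18:3 replicate 2 or DMSO replicates 2 and 4 (adjusted p = 0.0649 to 0.0845). ACOX3, an oxidase for branched-chain substrates, was at 28.7 to 34.7 CPM in CLA18:3 and 28.4 to 35.8 CPM in RSL3+CLA18:2, both overlapping the 34.5 to 40.5 CPM of DMSO libraries. It fell with a log2 fold change of -0.21 ± 0.08 (adjusted p = 0.0440) in CLA18:3, a call lost without any 1 of CLA18:3 replicates 3 and 4 or DMSO replicates 2 and 3 (adjusted p = 0.0629 to 0.141), and also with the compared groups alone and with limma voom (adjusted p up to 0.0751). In RSL3+CLA18:2 it fell with a log2 fold change of -0.21 ± 0.08 (adjusted p = 0.0406), a call lost without any 1 of RSL3+CLA18:2 replicates 1, 3 and 4 or DMSO replicates 2 and 3 (adjusted p = 0.0523 to 0.171), and also with the compared groups alone (adjusted p = 0.0575). ACOX2, the oxidase of bile acid precursors, ranged over 3.13 to 4.55 CPM in CLA18:2, against 2.54 to 3.84 CPM in DMSO libraries, and ACAA1, the peroxisomal 3-ketoacyl-CoA thiolase, over 22.97 to 27.3 CPM in CLA18:2, against 23.03 to 27.1 CPM in DMSO libraries. Neither passed the test in any comparison.

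Of the enzymes that handle propionyl-CoA and side products, 1 of 4 was called in CLA18:2, CLA18:3 and RSL3+CLA18:2 (25% in each), less than the 38.8%, 35.9% and 35.2% of all genes tested. PCCA and PCCB form propionyl-CoA carboxylase, which takes up the propionyl-CoA left by odd-chain and branched acids. PCCA was at 8.07, 8.18, 6.80 and 6.74 CPM in CLA18:2, against 4.73, 5.28, 5.72 and 5.52 CPM in DMSO libraries, with a log2 fold change of 0.49 ± 0.18 (adjusted p = 0.0335). The call was lost without any 1 of CLA18:2 replicates 1 and 2 or DMSO replicates 1 and 2 (adjusted p = 0.0628 to 0.0885). PCCB was at 57.5 to 62.1 CPM in CLA18:2, against 52.6 to 56.4 CPM in DMSO libraries, with a log2 fold change of 0.14 ± 0.06 (adjusted p = 0.0901). It passed with the compared groups alone (adjusted p = 0.0175) and with limma voom (adjusted p = 0.0272). ECHDC1, a decarboxylase that removes ethylmalonyl-CoA, was at 94.7, 103, 97.5 and 86.9 CPM in CLA18:3 and 86.8, 86.5, 89.3 and 86.4 CPM in RSL3+CLA18:2, against 77.6, 79.8, 78.5 and 82.2 CPM in DMSO libraries. Both groups lay above DMSO, and ECHDC1 rose with a log2 fold change of 0.26 ± 0.05 (adjusted p = 4.0e-05) in CLA18:3 and 0.13 ± 0.05 (adjusted p = 0.0269) in RSL3+CLA18:2. The RSL3+CLA18:2 call was lost without any 1 of RSL3+CLA18:2 replicates 1 and 3 or DMSO replicates 1, 2 and 3 (adjusted p = 0.0509 to 0.0737), and also with no low-count filter (adjusted p = 0.212). ECHDC2 was at 6.78 to 9.83 CPM in CLA18:2, against 6.86 to 8.79 CPM in DMSO libraries, and did not pass the test in any comparison.

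The isomers LA and CLA18:2 were compared directly at 80 µM. CLA18:2 libraries were higher for 9 of the 32 genes and lower for 2, where 15.6% of all genes tested were higher and 14.6% lower (30.2% in all). For HSD17B4 the log2 difference was 0.78 ± 0.05 (adjusted p = 3.7e-14), from a mean of 123 ± 5.61 CPM in CLA18:2 and 71.6 ± 1.40 CPM in LA libraries (SD, n = 4 each). ETFDH was higher by a log2 difference of 0.46 ± 0.07 (adjusted p = 2.9e-06), ACADVL by 0.36 ± 0.07 (adjusted p = 7.4e-05), HADHA by 0.30 ± 0.06 (adjusted p = 6.2e-05), HADHB by 0.30 ± 0.06 (adjusted p = 3.8e-04) and ECI2 by 0.37 ± 0.09 (adjusted p = 0.00116). The libraries of the 2 groups did not overlap for these 6 genes, nor for ECI1 and ACAT1, which were lower. They also did not overlap for ACADM, ACAD10, PCCA and ABCD3, which did not pass the test. Lack of overlap was thus not particular to the genes that passed. The share of all genes tested without such overlap was not counted. ECI1 was lower, at 20.3, 21.04, 19.8 and 20.8 CPM in CLA18:2 and 25.7, 27.5, 28.02 and 28.6 CPM in LA libraries, with a log2 difference of -0.42 ± 0.09 (adjusted p = 2.7e-04). ACAT1 was lower with a log2 difference of -0.21 ± 0.06 (adjusted p = 0.00801), a call lost without LA replicate 3 (adjusted p = 0.0609). ETFA, ECH1 and PCCB were higher with overlapping libraries. ETFA gave a log2 difference of 0.17 ± 0.05 (adjusted p = 0.0127), lost without CLA18:2 replicate 4 (adjusted p = 0.0679), and ECH1 0.24 ± 0.08 (adjusted p = 0.0166), lost without CLA18:2 replicate 4 (adjusted p = 0.0881), and also with no low-count filter (adjusted p = 0.0706). PCCB gave a log2 difference of 0.17 ± 0.06 (adjusted p = 0.0384), lost without any 1 of CLA18:2 replicates 1, 3 and 4 or LA replicates 3 and 4 (adjusted p = 0.0626 to 0.135), and also with no low-count filter (adjusted p = 0.0656). ACAA2 was not shown to differ between the isomers, at a log2 difference of 0.08 ± 0.06 (adjusted p = 0.346) with a 95% interval of -0.04 to 0.19, nor was ETFB, at 0.03 ± 0.12 (adjusted p = 0.882) with a 95% interval of -0.20 to 0.27.

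**Figure D4:**
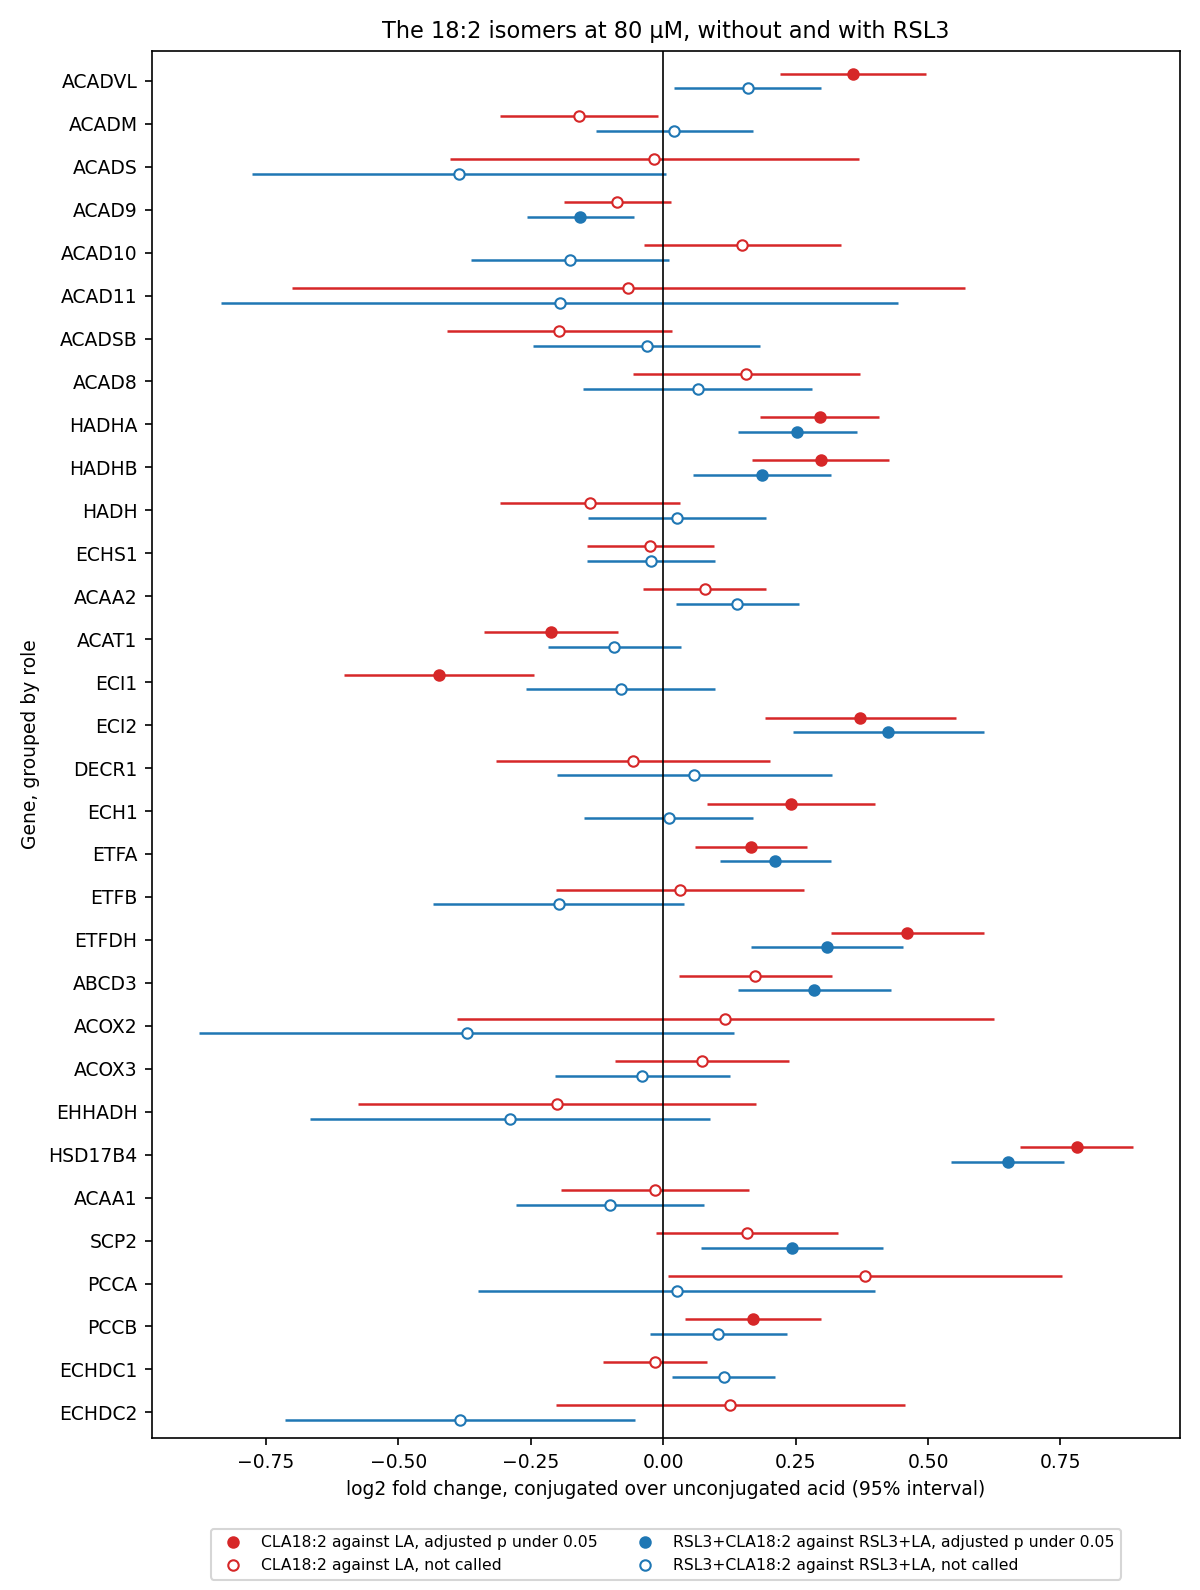
Log2 fold change with its 95% interval (x axis) for each of the 32 tested genes (y axis, grouped by role), CLA18:2 over LA in red and RSL3+CLA18:2 over RSL3+LA in blue, filled where the adjusted p is under 0.05. HSD17B4 lies farthest to the right in both comparisons, and ECI1 farthest to the left among the filled red points.

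With RSL3 present, RSL3+CLA18:2 libraries were higher than RSL3+LA libraries for 8 of the 32 genes and lower for 1, where 14.1% of all genes tested were higher and 12.0% lower (26.1% in all). HSD17B4 was at 113, 101, 100.5 and 108 CPM in RSL3+CLA18:2 and 67.04, 66.4, 67.9 and 67.4 CPM in RSL3+LA libraries, without overlap. Its log2 difference was 0.65 ± 0.05 (adjusted p = 7.3e-12). ECI2 was higher by a log2 difference of 0.43 ± 0.09 (adjusted p = 3.9e-04), ETFDH by 0.31 ± 0.07 (adjusted p = 0.00112), ABCD3 by 0.29 ± 0.07 (adjusted p = 0.00252), HADHA by 0.25 ± 0.06 (adjusted p = 6.7e-04) and ETFA by 0.21 ± 0.05 (adjusted p = 0.00219). HADHB gave a log2 difference of 0.19 ± 0.06 (adjusted p = 0.0292), lost without any 1 of RSL3+CLA18:2 replicate 1 or RSL3+LA replicates 2 and 3 (adjusted p = 0.0575 to 0.0771), and also with no low-count filter and with limma voom (adjusted p up to 0.0528). SCP2 gave a log2 difference of 0.24 ± 0.08 (adjusted p = 0.0302), lost without any 1 of RSL3+CLA18:2 replicates 1, 2 and 3 or RSL3+LA replicates 1 and 2 (adjusted p = 0.0592 to 0.127), and also with the compared groups alone and with limma voom (adjusted p up to 0.0727). ACAD9 was lower with a log2 difference of -0.16 ± 0.05 (adjusted p = 0.0175), lost without any 1 of RSL3+CLA18:2 replicate 2 or RSL3+LA replicate 3 (adjusted p = 0.0726 to 0.0935), and also with no low-count filter and with the compared groups alone (adjusted p up to 0.0859). ACADVL gave a log2 difference of 0.16 ± 0.07 (adjusted p = 0.0828) with a 95% interval of 0.02 to 0.30, and ECI1 -0.08 ± 0.09 (adjusted p = 0.554) with a 95% interval of -0.26 to 0.10. With no low-count filter ACADVL passed (adjusted p = 0.0470).

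With RSL3 alone no gene of the 32 passed the test. Against DMSO the 32 log2 fold changes ran from -0.35 for EHHADH to 0.19 for ETFDH, whose libraries were at 20.3, 18.1, 18.1 and 20.1 CPM in RSL3, against 16.8, 18.3, 15.6 and 16.2 CPM in DMSO libraries, with a log2 fold change of 0.19 ± 0.07 (adjusted p = 0.642). The median width of the 95% intervals was 0.34 on the log2 scale. RSL3+LA changed 0 of the 32 genes against LA, where 0.0368% of all genes tested rose and 0.0123% fell (0.0490% in all), with 1 gene at an unadjusted p under 0.05 and 0 by DESeq2. The 1 gene was ACAD9, at a log2 difference of 0.17 ± 0.05 (adjusted p = 0.269). RSL3+CLA18:2 lowered 1 of the 32 against CLA18:2, where 6.65% of all genes tested rose and 5.24% fell (11.9% in all). The gene was HSD17B4, at 113, 101, 100.5 and 108 CPM in RSL3+CLA18:2 and 128, 116, 121 and 127 CPM in CLA18:2 libraries, with all of the first group below the second and a log2 fold change of -0.22 ± 0.05 (adjusted p = 0.00319).

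The interaction asks whether a response to RSL3 differed with the acid present. For LA 0 of the 32 genes passed the test, with 0 at an unadjusted p under 0.05 by edgeR and 0 by DESeq2, where 0% of all genes tested passed with a positive value and 0.0245% with a negative one (0.0245% in all). For CLA18:2 1 of the 32 passed, with a negative value, where 1.75% of all genes tested passed with a positive value and 1.80% with a negative one (3.55% in all). It was HSD17B4, whose log2 response to RSL3 was -0.22 with CLA18:2 and 0.06 without it, a difference of -0.28 ± 0.07 (adjusted p = 0.0279). This call was lost without any 1 of RSL3 replicates 2 and 3, RSL3+CLA18:2 replicates 2 and 3, CLA18:2 replicates 1 and 4 or DMSO replicates 1, 2 and 3 (adjusted p = 0.0588 to 0.0966), and also with no low-count filter (adjusted p = 0.0567).

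Genes of neighbouring pathways were counted in 6 further lists, with values as log2 fold changes against DMSO and the share of each list that was called beside that of all genes. Of 7 tested genes of the carnitine shuttle, which brings acyl groups into mitochondria, 4 rose and 1 fell in CLA18:2 (71.4% of the list called, beside 38.8% of all genes tested). In LA 2 rose and 0 fell (28.6%, beside 8.32%), and in CLA18:3 1 rose and 1 fell (28.6%, beside 35.9%). CPT1A, the rate-limiting transferase, had a log2 fold change of 2.53 ± 0.09 in CLA18:2, 2.18 ± 0.09 in LA and 0.41 ± 0.09 in CLA18:3, and the carrier SLC25A20 of 1.49 ± 0.12 in CLA18:2 and 1.29 ± 0.12 in LA. Of 15 further oxidation genes, 5 rose and 3 fell in CLA18:2 (53.3% of the list called, beside 38.8% of all genes tested). In LA 2 rose and 0 fell (13.3%, beside 8.32%), and in CLA18:3 7 rose and 1 fell (53.3%, beside 35.9%). CAT, the catalase that removes hydrogen peroxide, had 1.08 ± 0.07 in CLA18:2 and 0.48 ± 0.08 in LA.

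Of 15 peroxisome assembly genes, 7 rose and 0 fell in CLA18:2 (46.7% of the list called, beside 38.8% of all genes tested), and in CLA18:3 3 rose and 1 fell (26.7%, beside 35.9%). The list medians were 0.16 in CLA18:2 and 0.10 in CLA18:3, beside 0.03 in LA. PEX19, a chaperone of peroxisomal membrane proteins, had the smallest p of the list in CLA18:2, at a log2 fold change of 0.56 ± 0.08. Of 18 tricarboxylic acid cycle genes, which take up the acetyl-CoA, 6 rose and 2 fell in CLA18:2 (44.4% of the list called, beside 38.8% of all genes tested), and in CLA18:3 8 rose and 1 fell (50%, beside 35.9%). Their list medians were 0.05 in CLA18:2 and 0.13 in CLA18:3. Of 34 nuclear-encoded respiratory chain genes, 27 rose and 0 fell in CLA18:3 (79.4% of the list called, beside 35.9% of all genes tested), with a list median of 0.33 beside 0.00 over all genes. In CLA18:2 11 rose and 3 fell (41.2%, beside 38.8%), with a list median of 0.10, and in LA 1 rose and 0 fell (2.94%, beside 8.32%). The CLA18:2 shares of the last 2 lists lie near that of all genes. Of 7 tested receptors and coactivators of fatty acid oxidation, 1 rose and 3 fell in CLA18:2 (57.1% of the list called, beside 38.8% of all genes tested). These were RXRA, the partner receptor of the PPARs, at 0.48 ± 0.06, and PPARD at -0.42 ± 0.05, PPARGC1B at -0.45 ± 0.11 and NRF1 at -0.32 ± 0.09. In CLA18:3 1 rose and 2 fell (42.9%, beside 35.9%), and in LA 1 rose and 0 fell (14.3%, beside 8.32%).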

How the data were processed

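RNA of 28 HT-1080 libraries was measured by sequencing. The deposited files hold raw read counts per gene, which the authors made, per the submitters' processing notes, with HISAT, SAMtools, featureCounts and DESeq2 on hg38. Versions, annotation and strand setting are not given in the sources used here. The design text gives the fatty acid doses in µM where the labels write mM, and µM is used.

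Genes were kept with edgeR's default filter on the 7 groups, leaving 16325 of 60286 genes with 99.9% of counts, at 16226270 to 24286824 counts per library. Counts were scaled by TMM, and 1 mean per group was fitted over 28 libraries (21 residual degrees of freedom) with edgeR 4.0.16 in R 4.3.3. The 12 comparisons were tested with edgeR's quasi-likelihood F, adjusted by Benjamini-Hochberg and read at 0.05. The SE divides the log2 fold change by the square root of F, and intervals are at 95%. CPM are counts over library size and TMM factor. The alternatives were DESeq2 size factors, no low-count filter, a replicate block, the compared groups alone, DESeq2 1.42.0, limma 3.58.1 voom with group weights, and each library left out. In simulated LA against DMSO libraries the test recovered 33 of 50 genes changed 1.5-fold, with 2 false calls among 16048 genes. Of 50 genes changed 1.25-fold it recovered 19. In simulated CLA18:3 against DMSO libraries it recovered 34 of 50 changed 1.5-fold and 21 of 50 changed 1.25-fold, with 9 false calls among 16056 genes. The simulation used 1 spread per gene for all groups, while the real groups ran from 4.52% (DMSO) to 19.9% (CLA18:3). It therefore cannot show how the test does where the spread differs between groups. Positions are from GENCODE release 29 on GRCh38 and promoters from RefSeq on GRCh38.p14. Figures used matplotlib 3.10.9 in Python 3.11.15.

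The 33 genes and the further lists were chosen with earlier results of these data known. All 33 are named with their ranges. The rule gave a value for each library to up to 8 called genes per comparison with DMSO and 5 in the others, and the further genes given such values were chosen after their values were seen. Up to 4 called genes per further list are named. Some genes of the further lists are counted but not reported by name here.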

Additional observations from a re-analysis of the deposited data

Results flagged for a closer look

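In 238 groups of 4 libraries, 11 had a highest or lowest library far from the other 3 by Dixon's test at the 95% level, which chance gives in about 5% of groups. ACAD8 was at 19.9 CPM in RSL3+LA replicate 2, below the 22.1 to 22.4 CPM of the other 3. ACAD11 was at 2.96 CPM in the same library, above 1.52 to 1.67 CPM. HADHA was at 209.9 CPM in RSL3+CLA18:2 replicate 4, above 187 to 189 CPM, and SCP2 was at 46.4 CPM in that library, below 57.3 to 58.02 CPM. ECHDC1 was at 89.3 CPM in RSL3+CLA18:2 replicate 3, above 86.4 to 86.8 CPM, and PCCA was at 4.85 CPM there, below 6.62 to 6.91 CPM. ECI2 was at 26.6 CPM in LA replicate 3, below 29.5 to 29.8 CPM. In CLA18:2, ACOX3 was at 31.0 CPM in replicate 1, below 36.1 to 36.7 CPM, and EHHADH was at 4.71 CPM in replicate 4, below 5.76 to 5.92 CPM.

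The share of mitochondrially encoded mRNAs was 0.548% in RSL3 replicate 4, below the 1.47% to 1.498% of the other 3, and 1.68% in RSL3+CLA18:2 replicate 3, above 0.263% to 0.313%. The response of HSD17B4 to RSL3 differed with CLA18:2 present, by -0.28 on the log2 scale in the interaction test of edgeR (adjusted p = 0.0279). That call was lost without any 1 of 9 of the 16 libraries, and also with no low-count filter (adjusted p = 0.0567).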

How the results depend on the processing

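Of 87 calls of the 33 genes over the 12 comparisons, 74 held under all 6 other settings, 69 without each library in turn and 68 under all of these, and 0 reversed direction. In LA against DMSO, limma voom with group weights called 11 genes in place of 7 (ACADSB and ACAD9 lower, ACAD10 and HADHB higher were added). In CLA18:2 against DMSO, the compared groups alone called 21 in place of 18, adding ACADM lower and ACADS and PCCB higher. There limma voom called 20, adding ACADM lower and PCCB higher. In CLA18:2 against LA, both settings called 14 in place of 11, adding ACADM lower and PCCA and ABCD3 higher. With no low-count filter 9 were called in that comparison. In the interaction of RSL3 with CLA18:2, 0 genes passed with no low-count filter, in place of 1 (HSD17B4). The cause was not tested. Leaving out 1 library gave 7 to 8 genes for LA, 17 to 18 for CLA18:2, 14 to 17 for CLA18:3, 7 to 8 for RSL3+LA and 12 to 15 for RSL3+CLA18:2 against DMSO, with 0 to 0 for RSL3. It gave 8 to 11 for CLA18:2 against LA, 7 to 11 for RSL3+CLA18:2 against RSL3+LA, 0 to 0 for RSL3+LA against LA and 1 to 2 for RSL3+CLA18:2 against CLA18:2. The interaction of RSL3 with LA gave 0 to 0 and that with CLA18:2 gave 0 to 2. The 2 were reached without RSL3+CLA18:2 replicate 1 against CLA18:2 and without RSL3+CLA18:2 replicate 4 in the interaction.

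Replicate numbers were checked as pairs. Of 84 correlations of same-numbered deviations over all tested genes, 1 exceeded 0.1 (range -0.0997 to 0.134), and in 0 of 21 group pairs did all 4. Over 7335 genes of at least 20 CPM, 31 did, and RSL3 with RSL3+CLA18:2, which are not compared directly, exceeded 0.1 in all 4 numbers. In 0 group pairs did every library correlate best with its own number. The replicate block left the counts as they were, at 0, 7, 18, 17, 8 and 15 genes against DMSO for RSL3, LA, CLA18:2, CLA18:3, RSL3+LA and RSL3+CLA18:2, at 11 and 9 for the isomers, at 0 and 1 for RSL3 added to LA and CLA18:2, and at 0 and 1 for the interactions. Depth limits ACAD11, ACOX2, PCCA, ACADS and EHHADH, all under 10 CPM, and DECR2, at 5 counts in all.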
